A study of Rattus norvegicus with 241 samples.

Results

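The genes described here mark B cells and the plasma cells that arise from them. They are CD79B, MS4A1, PAX5, BLK, MZB1 and JCHAIN, chosen by name with the case of letters ignored, and they are 6 of the 20671 genes listed in the CD45 bulk tables or the whole-gland single-cell tables. CD45 tables used here list 5 of the 6 (not JCHAIN), and the whole-gland tables list all 6 among 18237 genes. The study gave ACI or Sprague Dawley (SD) rats galunisertib by oral gavage and asked how a course of the drug alters the mammary gland and later tumors. Galunisertib is a small-molecule inhibitor of the TGF-β receptor kinase TGFBR1, and rats given it are called TGFBRi-treated. Leukocytes sorted by the surface protein CD45 (the product of PTPRC) were profiled by bulk RNA-seq in 74 samples that form 22 groups, and cells of unsorted whole glands were profiled by single-cell RNA-seq in 9 samples, of 241 samples in the series.

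All TGFBRi-treated rats received 75 mg/kg and all controls received vehicle. Dosing of young ACI rats lasted 10 days and began at 35 days of age, and they were taken at day 0, 7 or 14 after the last dose, 3 rats per arm and day. Young SD rats, 4 per arm, and the SD rats of the whole-gland samples, 3 given vehicle and 6 TGFBRi-treated, started their 10 days of dosing at 24 days of age and were taken at day 0. Adult ACI rats of 18 to 24 weeks were virgin (4 vehicle, 3 TGFBRi-treated) or parous (2 vehicle, 4 TGFBRi-treated) and were taken at day 0 after 10 days of dosing. In the estradiol (E2) experiment, ACI rats had 21 days of dosing starting at 38 days of age. They were then given an empty implant, called without E2 here (4 vehicle, 3 TGFBRi-treated, all tumor-free), or a 37 mg E2 pellet. The paper states that their leukocytes were assessed at the end of that study. With E2, 4 vehicle rats and 2 TGFBRi-treated rats were tumor-bearing and 4 TGFBRi-treated rats were tumor-free, 1 of them sampled as 4 parts. No vehicle rat with E2 was tumor-free, so effects of E2 and of bearing a tumor cannot be told apart in the vehicle arm. In the carcinogen experiment, every SD rat received NMU (N-nitroso-N-methylurea, 50 mg/kg) after 10 days of dosing that began at 21 days of age, and was taken 87 days later. Glands gave CD45 cells from 3 vehicle rats with tumors and, in the TGFBRi arm, from 3 rats without and 3 with tumors. Tumors of the 3 tumor-bearing rats of each arm gave CD45 cells as well. The sources used here do not say whether lymph nodes were removed from the tissue.

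B cells recognise antigen through the B cell receptor, a membrane immunoglobulin that signals through the paired chains CD79A and CD79B and through kinases of the SRC family such as BLK. PAX5 is the transcription factor that holds cells in the B lineage, and MS4A1 (CD20) is a surface protein of B cells that is lost, like PAX5, when they become antibody-secreting plasma cells. MZB1, a protein of the endoplasmic reticulum that helps antibody assembly, and JCHAIN, which links IgA and IgM into polymers that epithelia can export, rise in plasma cells. In the mammary gland, plasma cells that arrive around lactation supply the IgA of milk.

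CD45 samples held between 7006141 and 40042138 reads assigned to genes, with a median of 21924922. Median levels of the members were higher than in sorted epithelium, with overlap. CD79B had a median of 170.1 CPM (reads scaled to a common library total, range 0.6099 to 864) in the 74 CD45 samples, against 0.0771 (up to 36.5) in 51 basal and 0.253 (up to 4.57) in 71 luminal epithelial samples. PTPRC had a median of 719 CPM in CD45 samples (48.3 to 1368). CD45 samples also held reads of other cells, whose marker values are given beside many of the results. Bulk levels below are DESeq2-normalized counts as deposited, comparable only within an experiment, and differences are on the scale of log2(normalized count + 1). Each rat is 1 replicate, and the call used for bulk data is limma's adjusted p of 0.05 or less over all genes tested.

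Among the 6 members, 1 (JCHAIN) matched the RefSeq table of promoters, which is on the build GRCr8 and not the rn6 build of the deposited files. Its 250 bases before the start lie on the + strand at chr14:19822726-19822975. They are shown because most JCHAIN molecules came from few cells in the single-cell data below. Capitals mark E boxes, the motif CANNTG, which reads the same on both strands and which several B lineage factors can bind. It was found 3 times, at 135, 44 and 19 bases before the start.
JCHAIN: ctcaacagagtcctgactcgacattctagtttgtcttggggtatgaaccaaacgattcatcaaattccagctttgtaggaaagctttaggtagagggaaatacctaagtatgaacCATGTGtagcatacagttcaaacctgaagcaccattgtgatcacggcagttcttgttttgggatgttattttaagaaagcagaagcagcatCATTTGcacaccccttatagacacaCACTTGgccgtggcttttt
At least 1 such motif was in the same window of 21936 of 33469 promoters (65.5%), so its presence does not set JCHAIN apart.

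The members varied widely among rats of many groups, with higher median spreads than the leukocyte gene PTPRC. For CD79B, the highest rat of a group exceeded the lowest by 1.103 to 554 times over 22 groups, with a median of 6.303. The median was 3.41 for MS4A1, 4.11 for PAX5, 2.62 for BLK and 3.67 for MZB1 in the groups with no rat at 0, against 1.67 for PTPRC, whose widest group spanned 5.002 times. In glands of TGFBRi-treated tumor-bearing NMU rats PTPRC spanned 4.908 times and BLK 2.165. The T cell gene CD3E also varied, at 14053, 511 and 757 normalized counts in young ACI vehicle rats at day 0. In bulk samples, fewer B cells and less RNA per B cell cannot be told apart.

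The members moved together across rats. After each gene was centred on its mean in each experiment, Pearson's r of CD79B over 71 rat and tissue samples was 0.903 with MS4A1, 0.872 with PAX5, 0.717 with BLK and 0.653 with MZB1. The same measure was 0.128 with PTPRC, 0.471 with the T cell gene CD3E and -0.64 with the macrophage gene CSF1R. Samples with much CD79B thus tended to have little CSF1R. These points share libraries, sorts and conditions, and the values are a description. By the same measure over 11259 genes, the genes most like CD79B were FCER2 (r = 0.914), which encodes the B cell surface receptor CD23, HES5 (r = 0.907) and DUS2 (r = 0.907). Those most like PAX5 were HES5 (r = 0.914), CD79B (r = 0.872) and FCER2 (r = 0.869), and those most like MS4A1 were CD79B (r = 0.903), HES5 (r = 0.836) and PDE6H (r = 0.834). BLK was most like SPIB (r = 0.865), which encodes a transcription factor of B cells and plasmacytoid dendritic cells, CYB561A3 (r = 0.85) and TSPAN33 (r = 0.82). MZB1 was most like POU2AF1 (r = 0.732), which encodes a coactivator of immunoglobulin genes, PDCD1LG2 (r = 0.713) and GIMAP6 (r = 0.697).

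**Figure D1:**
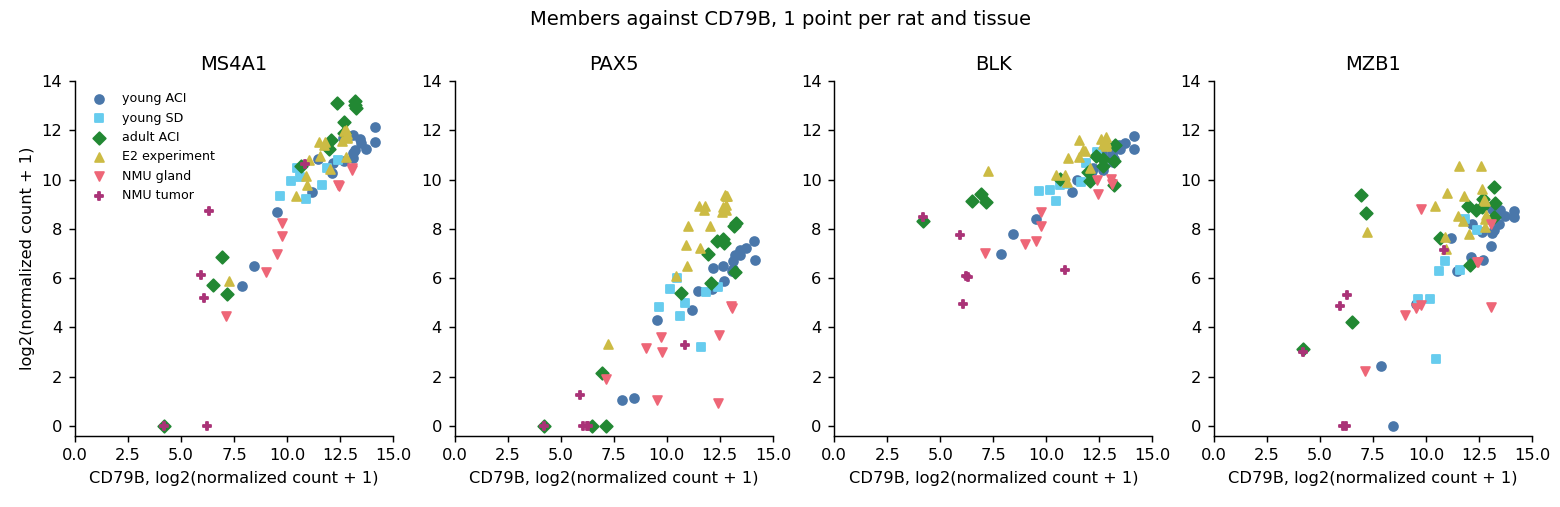
Levels of MS4A1, PAX5, BLK and MZB1 (y axes) against CD79B (x axes), each as log2(normalized count + 1), with 1 point per rat and tissue and a colour and symbol for each of 6 experiments. MS4A1 and PAX5 followed CD79B most closely (r within experiments = 0.903 and 0.872), and BLK and MZB1 less so.

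In young ACI rats at the end of dosing, B lineage genes were low in 2 vehicle rats and high in the third, while all 3 TGFBRi-treated rats were high. CD79B was at 9465, 348 and 232 normalized counts in vehicle rats 1, 2 and 3, and at 8659.9, 6335 and 2789.8 in TGFBRi-treated rats 1, 2 and 3. MS4A1 was at 2333, 89.97 and 49.9 in the vehicle rats and at 3588, 3339.8 and 1807 in the TGFBRi-treated rats. Vehicle rat 1 lay inside or above the TGFBRi-treated range for every member, and vehicle rats 2 and 3 lay below it, so the groups overlapped through rat 1. PAX5 was at 122, 1.17 and 1.08 with vehicle and at 76.8, 89.7 and 43.04 with TGFBRi. BLK was at 1847, 219.7 and 127 with vehicle and at 2085, 2193 and 1024 with TGFBRi. MZB1 was at 249, 0 and 4.34 with vehicle and at 159, 233 and 76.1 with TGFBRi. The 2 low vehicle rats had near to no reads of PAX5 and MZB1 while keeping some of BLK and CD79B.

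Fitted differences at day 0, TGFBRi minus vehicle, ran from +2.16 (SE 0.77) for BLK to +3.69 (SE 1.34) for MZB1. MS4A1 came nearest to the threshold at +3.66 (SE 0.97), with an adjusted p of 0.05195 from limma. None of the 5 members passed (limma adjusted p 0.05195 to 0.202), with 5 of 5 at an unadjusted p under 0.05, beside 420 of 14761 genes (2.85%) that passed and 2642 genes at an unadjusted p under 0.05, 192 called by edgeR and 1043 by DESeq2. Without vehicle rat 1, which leaves 2 vehicle rats, 5 of 5 members passed with differences of +3.32 to +5.94 and limma adjusted p of 0.000133 to 0.00645, as did 779 of all genes. Rat 1 was the only vehicle rat that overlapped the TGFBRi-treated rats, so these calls follow from its removal and are no added support. Leaving out 1 rat at a time gave 0 to 5 members called.

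Other cells' genes differed in the same samples. Summed markers of neutrophils were at 648 to 2383 normalized counts in vehicle rats and 9721 to 46847 in TGFBRi-treated rats, and 4 of 7 such genes rose. Summed markers of basal epithelium were at 2591 to 9961 and 84.5 to 159, with 4 of 6 lower, and those of fibroblasts at 363396 to 736541 and 21355 to 148161, with 3 of 6 lower. KRT14, a keratin of basal cells, fell by 5.46 and the neutrophil gene S100A8 changed by +4.35. Vehicle rat 1 also differed from the other vehicle rats in CD3E, at 14053, 511 and 757 in vehicle rats 1, 2 and 3, and in CSF1R, at 4897, 48728 and 27655. The part of these cells in the B lineage values was not tested. Divided by PTPRC, all 5 members stayed higher with TGFBRi, with the median of all genes at -0.89, and 1.7% of 409 called genes were higher, against 29.3% of 420.

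At day 0, of 72 other genes of the B lineage pathway from 6 lists (receptor signalling, transcription factors, germinal centre, plasma cell, survival and homing, antibody transport), 1 rose and 0 fell, beside 0.833% and 2.01% of all genes. It was CD38, a surface enzyme of lymphocytes, at +1.06 (limma adjusted p = 0.0473). List medians were +0.14 for receptor signalling, +0.56 for transcription factors and +1.16 for survival and homing, against -0.04 over all genes.

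**Figure D2:**
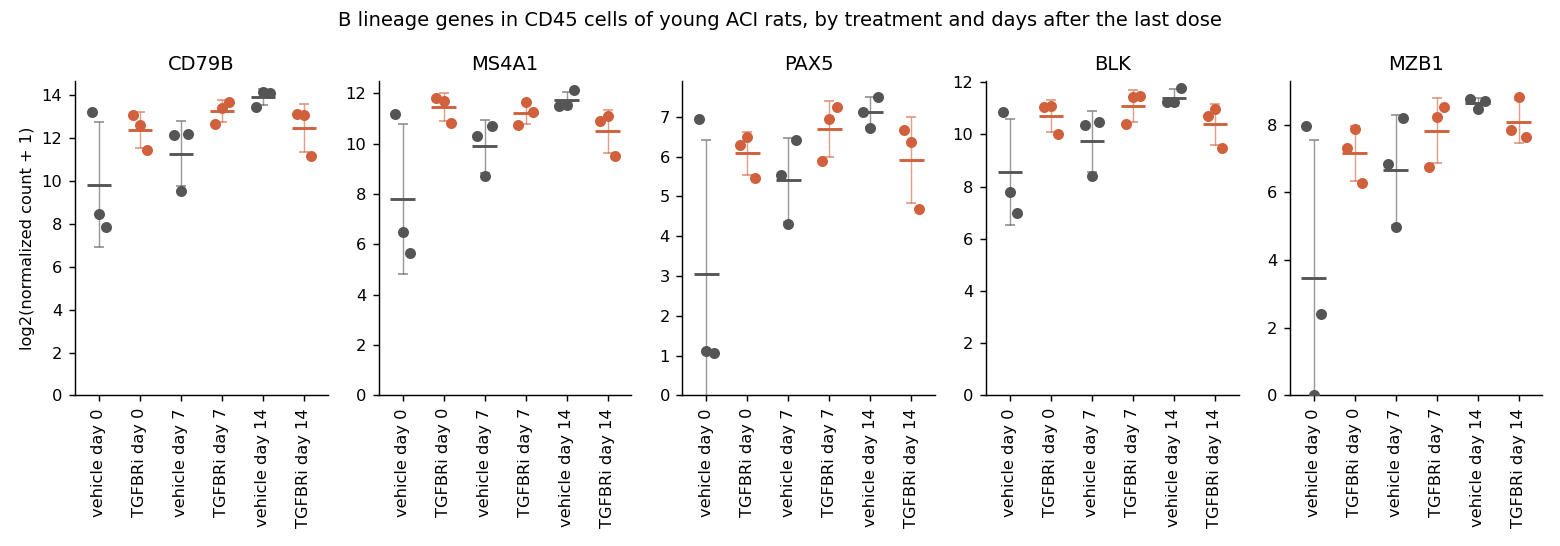
CD79B, MS4A1, PAX5, BLK and MZB1 in CD45 cells of young ACI rats, as log2(normalized count + 1), by day after the last dose and arm, with 1 point per rat, a line at the mean of the log2 values and an error bar of 1 SD (n = 3). At day 0 vehicle rats 2 and 3 sat below the other 4 rats, and vehicle rats at day 14 sat above the TGFBRi-treated rats for 4 of 5 members.

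In the vehicle arm, B lineage genes had higher values at day 14 than at day 0, although no member passed the test, and at day 14 each vehicle rat was above each TGFBRi-treated rat for 4 of 5 members (not MZB1). CD79B in vehicle rats was at 4477, 735 and 4632 at day 7 and at 11334, 18065 and 17967 at day 14. CD3E was at 14053, 511 and 757 at day 0 and 10551, 8708 and 6810.5 at day 14, a difference of +2.28 (SE 1.05, limma adjusted p = 0.335). PAX5 in vehicle rats was at 139, 105.3 and 181 at day 14 and MS4A1 at 2878, 2942 and 4443. Every vehicle rat at day 14 exceeded every vehicle rat at day 0 for 4 of 5 members (not PAX5), a pattern shown by 987 of 14761 genes (6.69%). Differences, day 14 minus day 0, were +2.86 to +5.19 and none passed (limma adjusted p 0.0926 to 0.133, 5 of 5 unadjusted p under 0.05), beside 19 of 14761 genes (0.129%) and 2115 genes at an unadjusted p under 0.05, 6 called by edgeR and 470 by DESeq2. At day 7 the differences from day 0 were +1.19 to +3.21 (limma adjusted p 0.766 to 0.908), with 0 of 5 members called beside 0 of 14761 genes (0.0%) and 861 genes at an unadjusted p under 0.05, 0 called by edgeR and 40 by DESeq2. Without vehicle rat 1 of day 0, 5 of 5 members passed for day 14 and 3 of 5 (MS4A1, PAX5 and MZB1) for day 7, beside 1163 and 36 of all genes. That rat was the highest vehicle rat of day 0 for every member, and these calls rest on its removal.

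In TGFBRi-treated rats the days overlapped for CD79B. CD79B was at 6586, 11052 and 13403 in them at day 7, where the title of rat 3 says day 9 while its other labels say day 7, and at 8912, 8805 and 2327 at day 14. At day 7 CD79B and MS4A1 were higher in each TGFBRi-treated rat than in each vehicle rat, as were 669 of 14761 genes (4.53%). They differed by +2.00 and +1.33 (limma adjusted p 1 for both), with 0 of 5 members called beside 0 of 14761 genes (0.0%) and 631 genes at an unadjusted p under 0.05, 0 called by edgeR and 18 by DESeq2. KRT14 was lower in each TGFBRi-treated rat, at 7439, 7225 and 3632 with vehicle and 1176, 1577 and 503 with TGFBRi, a difference of -2.57 (SE 0.57, limma adjusted p = 0.429), and its part in the members' values was not tested. At day 14 CD79B, MS4A1, PAX5 and BLK were lower in each TGFBRi-treated rat, as were 1121 of 14761 genes (7.59%). BLK was at 2396, 2392 and 3508 with vehicle and 1681, 1984 and 713 with TGFBRi, and MS4A1 was at 1901, 2159 and 727 with TGFBRi. MZB1 overlapped, at 432, 355 and 417 with vehicle and 226, 450.1 and 196 with TGFBRi. Differences at day 14 were -1.44 to -0.56, none passed (limma adjusted p 0.899 to 0.998, 0 of 5 at an unadjusted p under 0.05), beside 0 of 14761 genes (0.0%) and 725 genes at an unadjusted p under 0.05, 0 called by edgeR and 17 by DESeq2.

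The treatment effect at day 0 exceeded that at day 14 by +3.19 to +4.88 (limma adjusted p 0.116 to 0.283, 0 of 5 called and 5 of 5 at an unadjusted p under 0.05), beside 28 of 14761 genes (0.19%) called and 2347 genes at an unadjusted p under 0.05, 23 called by edgeR and 823 by DESeq2. Without vehicle rat 1 of day 0, 5 of 5 passed, beside 598 of all genes. These calls, too, rest on removing the vehicle rat with the highest day 0 values. Against day 7 the excess was +0.55 to +2.54 (limma adjusted p 0.582 to 0.926, 0 of 5 called), beside 2 of 14761 genes (0.0135%) and 1555 genes at an unadjusted p under 0.05, 1 called by edgeR and 162 by DESeq2. Ordered by the mean of CD79B, the 6 groups ran from vehicle day 7 (3281 ± 2207, SD, n = 3), vehicle day 0 (3348 ± 5297), TGFBRi day 0 (5928 ± 2956), TGFBRi day 14 (6682 ± 3771) and TGFBRi day 7 (10347 ± 3463) to vehicle day 14 (15789 ± 3858). Each neighbouring pair in this order overlapped.

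In young SD rats at day 0 the arms did not separate. CD79B was at 1882, 799, 1408 and 5435 in vehicle rats 1 to 4 and at 1149, 3699.6, 3148 and 1575 in TGFBRi-treated rats. MZB1 was at 103.9, 35.05, 5.53 and 245 with vehicle and 34.6, 339, 78.4 and 76.7 with TGFBRi, where rat 2 stood above the others. Every member's groups overlapped. Differences were +0.22 for CD79B, +0.12 for MS4A1, -0.70 for PAX5, +0.07 for BLK and +0.91 for MZB1, with limma adjusted p of 0.874 to 0.9703 and 0 of 5 called or at an unadjusted p under 0.05, beside 0 of 13779 genes (0.0%) and 501 genes at an unadjusted p under 0.05, 0 called by edgeR and 1 by DESeq2. The 95% interval of the CD79B difference was -1.01 to +1.45, the range of changes compatible with these values. Divided by PTPRC, the differences of CD79B, MS4A1 and BLK took the opposite sign, with the median of all genes moving from +0.12 to -0.19.

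In adult ACI rats, CD79B and MS4A1 spanned a wide range within each group, and the groups overlapped. CD79B was at 4298, 9664, 17.4 and 1609 in vehicle virgin rats 1 to 4 and at 89.2, 9348 and 3982 in TGFBRi-treated virgin rats. It was at 141 and 6585 in the 2 vehicle parous rats and at 9323, 6464, 5209 and 121 in the TGFBRi-treated parous rats. Each of the 4 groups thus had 1 rat at 141 or below, and no groups separated. MS4A1 was at 3161, 7619, 0 and 1516 in vehicle virgin rats and 8367, 5179, 8799.8 and 114 in TGFBRi-treated parous rats, low in the same rats as CD79B. MZB1 did not follow in the latter group, at 357, 467, 429.5 and 668, with the rat lowest in CD79B the highest. The 4 low rats had summed macrophage markers of 177317 to 296250 normalized counts, and of the others only vehicle virgin rat 4, at 256340, reached that range. The part of macrophage RNA in these levels was not tested.

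None of the 5 members was called by limma in any of the 5 adult comparisons, and none had an unadjusted p under 0.05. TGFBRi against vehicle gave -0.44 to +1.28 in virgin rats (limma adjusted p 0.943 to 0.993), beside 3 of 13618 genes (0.022%) and 749 genes at an unadjusted p under 0.05, 0 called by edgeR and 69 by DESeq2. In parous rats it gave -0.05 to +2.71 (limma adjusted p 1), beside 0 of 13618 genes (0.0%) and 141 genes at an unadjusted p under 0.05, 0 called by edgeR and 0 by DESeq2. Parous against virgin gave -1.14 to +2.34 with vehicle (limma adjusted p 1), beside 0 of 13618 genes (0.0%) and 209 genes at an unadjusted p under 0.05, 0 called by edgeR and 0 by DESeq2, and +0.73 to +1.93 with TGFBRi (limma adjusted p 0.899 to 0.978), beside 0 of 13618 genes (0.0%) and 606 genes at an unadjusted p under 0.05, 0 called by edgeR and 20 by DESeq2. The treatment effect in parous minus that in virgin rats was -1.08 to +3.07 (limma adjusted p 0.991), beside 0 of 13618 genes (0.0%) and 368 genes at an unadjusted p under 0.05, 0 called by edgeR and 6 by DESeq2. For CD79B the 95% interval of the treatment effect was -4.51 to +5.53 in virgin and -4.33 to +7.06 in parous rats.

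In the E2 experiment, the arms overlapped among rats without E2. CD79B was at 7231, 7066, 6896 and 3397 in vehicle rats 1 to 4 without E2 and at 6474, 7138 and 7127 in TGFBRi-treated rats. The groups overlapped, and differences were -0.10 to +0.34 (limma adjusted p 1), with 0 of 5 members called or at an unadjusted p under 0.05, beside 0 of 13483 genes (0.0%) and 330 genes at an unadjusted p under 0.05, 0 called by edgeR and 0 by DESeq2. With E2, vehicle rats, all tumor-bearing, had CD79B at 2052, 3007, 4187 and 3560.3. BLK was lower in each of them than in each vehicle rat without E2, at 1852, 1929, 1415 and 2278 against 3414, 2625, 3145 and 2338, as were 456 of 13483 genes (3.38%), with a difference of -0.63 (SE 0.33) (limma adjusted p = 0.468). Across members the vehicle differences, E2 minus no E2, were -0.97 to +0.48, with 0 of 5 called or at an unadjusted p under 0.05, beside 38 of 13483 genes (0.282%) and 1626 genes at an unadjusted p under 0.05, 0 called by edgeR and 251 by DESeq2. COL1A1, a collagen gene of fibroblasts, differed by -2.60 (SE 0.79, limma adjusted p = 0.182) and CD3E by +0.79 (SE 0.20, limma adjusted p = 0.0976).

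TGFBRi-treated, tumor-free rats with E2 had lower CD79B, MS4A1 and PAX5 than TGFBRi-treated rats without E2. CD79B was at 6116, 150 and 1383 in rats 2, 3 and 4 with E2, and the 4 parts of rat 1 were at 17.6, 33.6, 3533 and 4056, which were averaged before the fit. MS4A1 was at 3965, 3672 and 3356 without E2, and with E2 at 0, 13.99, 2213 and 2279 in the parts of rat 1 and at 3009.7, 58.4 and 643 in rats 2, 3 and 4. PAX5 was at 477, 637 and 497 without E2, and with E2 at 3.25, 2.798, 269 and 365 in the parts of rat 1 and at 405, 8.98 and 67.8 in rats 2, 3 and 4. For these 3 members every rat with E2 lay below every rat without it, as it did for 1542 of 13483 genes (11.4%). Differences, E2 minus no E2, were -2.46 (SE 0.78) for CD79B, -2.61 (SE 0.87) for MS4A1, -2.71 (SE 0.88) for PAX5, -0.86 (SE 0.36) for BLK and +0.07 (SE 0.67) for MZB1. None of the 5 members passed (limma adjusted p 0.0761, 0.0888, 0.0812, 0.162 and 0.968), with 4 of 5 at an unadjusted p under 0.05, beside 752 of 13483 genes (5.58%) and 3022 genes at an unadjusted p under 0.05, 661 called by edgeR and 1523 by DESeq2. Without rat 2, 4 of 5 (not MZB1) passed at -1.21 to -3.48, beside 1040 of all genes, and with the most-read part of rat 1 alone 1 of 5 passed (PAX5, -4.02, limma adjusted p = 0.03197). That was part 1, with CD79B at 17.6 and PAX5 at 3.25, where parts 3 and 4 had PAX5 at 269 and 365. The call rests on that choice of part.

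Within rat 1, the parts split into a pair with hardly any CD79B and a pair with 3533 and 4056 normalized counts. Summed B cell markers other than the members were at 2571, 3318, 17062 and 21773 in parts 1 to 4, summed macrophage markers at 19129, 19913, 7291 and 3048 and CD3E at 9138, 8675, 10378 and 10388. Parts low in CD79B were thus high in macrophage genes, with T cell genes at like levels in all 4 parts. Across the whole comparison, NK cell markers moved too: 4 of 5 rose, with summed levels of 4377 to 6356 without E2 and 8817 to 19762 with it, and summed macrophage markers were at 2607 to 3362 and 4468 to 15515. Their part in the B lineage values was not tested.

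Over all genes, 177 of 13483 (1.31%) fell in that comparison. Of 14 genes of B cell receptor signalling tested, 3 fell and 0 rose. They were the adaptor BLNK (-1.68, limma adjusted p = 0.0223) and the kinases BTK (-1.58, 0.0463) and SYK (-1.30, 0.0335), which myeloid cells also use. The list's median was -1.19 against -0.03 over all genes. None of 14 transcription factors passed in limma (list median -0.56). In the other lists PRDM1, the factor that drives plasma cell formation and also acts in T and NK cells, rose by +1.23, BCL6 by +1.11, S1PR2 by +1.15, LTB by +1.70 and ITGB7 by +1.24, and the kinase gene PIM2 fell by 0.92, so that 5 of 71 list genes rose and 4 fell. Over all genes, 76.5% of the 752 called were higher, and 86.7% of 444 when values were divided by PTPRC.

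Among rats with E2, members did not pass in any comparison of arms or tumor state. TGFBRi-treated tumor-bearing rats had CD79B at 1979.9 and 2929. TGFBRi tumor-free minus vehicle tumor-bearing rats gave -1.74 to -0.25 (limma adjusted p 0.793 to 0.927, 0 of 5 called and 1 at an unadjusted p under 0.05), beside 0 of 13483 genes (0.0%) and 845 genes at an unadjusted p under 0.05, 0 called by edgeR and 8 by DESeq2. Here treatment and tumor state changed together and cannot be told apart. TGFBRi minus vehicle among tumor-bearing rats gave -1.45 to -0.10 (limma adjusted p 0.615 to 0.957, 0 of 5 called or at an unadjusted p under 0.05), beside 3 of 13483 genes (0.0223%) and 1126 genes at an unadjusted p under 0.05, 0 called by edgeR and 21 by DESeq2. Tumor-bearing minus tumor-free among TGFBRi-treated rats gave -0.93 to +1.42 (limma adjusted p 0.558 to 0.912, 0 of 5 called or at an unadjusted p under 0.05), beside 9 of 13483 genes (0.0668%) and 1713 genes at an unadjusted p under 0.05, 0 called by edgeR and 41 by DESeq2. KRT14 was at 0 in both tumor-bearing rats and at 9.76, 0.933, 43.7, 110.4, 12.7, 751 and 24.7 in the 7 samples of the 4 tumor-free rats, of which the first 4 are from rat 1, and COL1A1 differed by -4.68 (SE 0.96, limma adjusted p = 0.108). The part of these cells in the members' values was not tested.

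**Figure D3:**
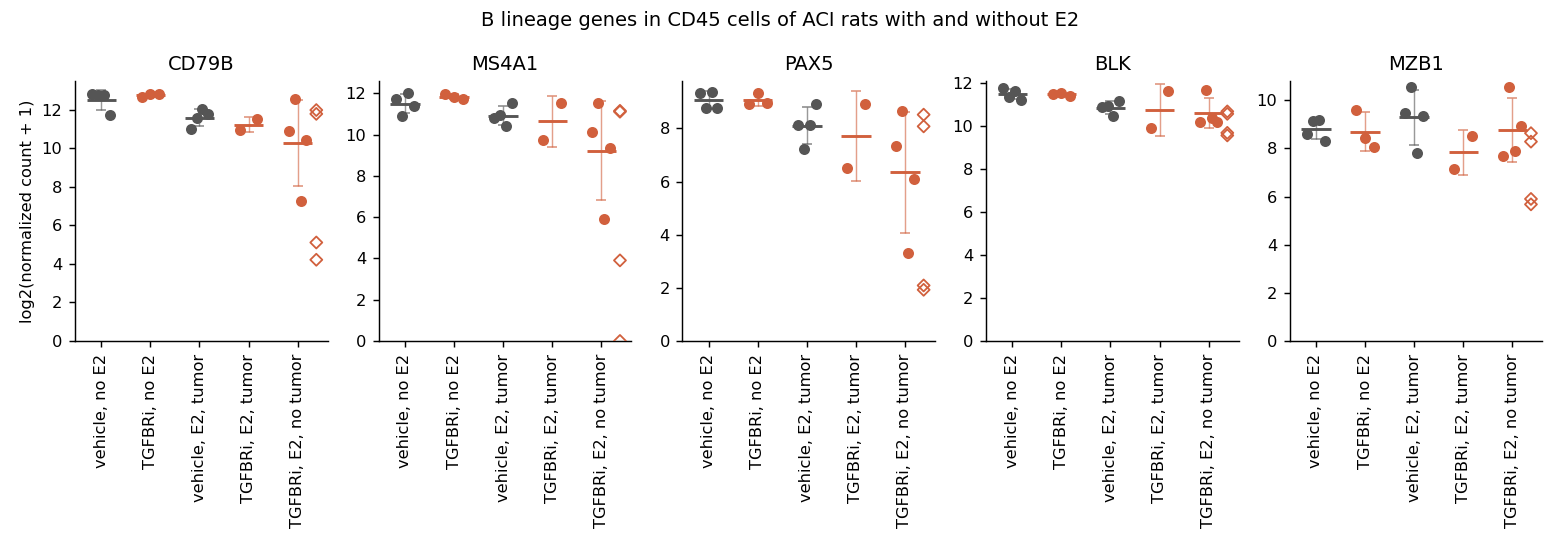
The 5 members in CD45 cells of the E2 experiment as log2(normalized count + 1) by group, with 1 point per rat, a line at the mean of the log2 values, an error bar of 1 SD and open diamonds for the 4 parts of the TGFBRi-treated tumor-free rat 1. Without E2, CD79B ranged over 3397 to 7231 with vehicle, where rat 4 lay below the other 3, and over 6474 to 7138 normalized counts with TGFBRi.

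In glands of NMU-treated SD rats, CD79B had its lowest mean in TGFBRi-treated tumor-bearing rats. CD79B was at 8433, 5421 and 855 in vehicle tumor-bearing rats, 736, 5568 and 8593 in TGFBRi-treated tumor-free rats and 516, 871 and 138 in TGFBRi-treated tumor-bearing rats. The last group overlapped each of the others through 1 rat. MZB1 was at 27.2, 99.7 and 28.7, 26.3, 100.4 and 293 and 21.7, 449 and 3.69 in the 3 groups, with TGFBRi-treated tumor-bearing rat 2 the highest and the other 2 rats of that group below every vehicle rat. Summed B cell markers other than the members overlapped, at 9135, 6669.8 and 3847 in vehicle rats and 1393, 6630.1 and 4088 in TGFBRi-treated tumor-bearing rats. Summed macrophage markers were at 75184, 66471 and 69176 and 35989.7, 142659 and 148492, and summed plasma cell markers at 18327, 18521 and 18272 and 69816, 20080.2 and 15326. Their part in the members' values was not tested. BLK was at 1031, 1011 and 408 in vehicle rats and at 166, 277 and 128 in TGFBRi-treated tumor-bearing rats, which did not overlap. Over all genes, 619 of 13297 genes (4.66%) were lower without overlap. Among tumor-bearing rats, TGFBRi minus vehicle was -3.10 (SE 0.98) for CD79B, -2.99 (SE 1.03) for MS4A1 and -2.05 (SE 0.60) for BLK, and 0 of 5 members passed (limma adjusted p 0.358 to 0.979) with 3 at an unadjusted p under 0.05, beside 2 of 13297 genes (0.015%) and 1011 genes at an unadjusted p under 0.05, 0 called by edgeR and 193 by DESeq2. DESeq2 called 1 of the 5, BLK, at -2.10 (DESeq2 adjusted p = 0.0346). TGFBRi-treated tumor-bearing minus tumor-free rats gave -3.05 for CD79B and a range of -3.05 to -0.48 (limma adjusted p 0.529 to 0.962, 0 of 5 called, 3 at an unadjusted p under 0.05), beside 0 of 13297 genes (0.0%) and 952 genes at an unadjusted p under 0.05, 0 called by edgeR and 119 by DESeq2. TGFBRi tumor-free minus vehicle tumor-bearing rats gave -0.65 to +1.09 (limma adjusted p 1, 0 of 5 called or at an unadjusted p under 0.05), beside 0 of 13297 genes (0.0%) and 404 genes at an unadjusted p under 0.05, 0 called by edgeR and 1 by DESeq2. Treatment and tumor state differed together in that comparison and cannot be told apart. TGFBRi-treated tumor-bearing rat 1 stood apart in other genes, with summed markers of basal epithelium at 258325 normalized counts. It was also the rat with summed plasma cell markers at 69816, while its MZB1 was at 21.7. The part of epithelial RNA in that plasma cell sum was not tested.

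In CD45 cells of NMU tumors, CD79B and MS4A1 were highest in TGFBRi-treated rat 3, and BLK had its higher mean with vehicle. CD79B was at 59.99, 66.2 and 17.5 in tumors of vehicle rats and at 74.1, 77.7 and 1858 in tumors of TGFBRi-treated rats, and MS4A1 at 68.4, 35.1 and 0 and 0, 428 and 1606. BLK was at 215, 29.6 and 351 with vehicle and 66.3, 65.8 and 79.7 with TGFBRi. Each TGFBRi tumor exceeded each vehicle tumor for CD79B, by +2.39 (SE 1.18), mostly through rat 3, as did 745 of 12641 genes (5.89%). Differences were -0.89 to +2.70 and none of the 5 passed (limma adjusted p 0.7596 to 0.938, 0 at an unadjusted p under 0.05), beside 0 of 12641 genes (0.0%) and 841 genes at an unadjusted p under 0.05, 0 called by edgeR and 66 by DESeq2.

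Tumor and gland came from the same 6 tumor-bearing rats, and comparing them gave the only bulk call for a member. On a common scale (CPM with TMM scaling), CD79B in vehicle rats 1, 2 and 3 was at 587, 381 and 60.6 CPM in the gland and at 5.17, 5.93 and 1.61 CPM in the tumor. MS4A1 was at 97.4, 60.9 and 14.8 CPM in the gland and 5.89, 3.14 and 0 CPM in the tumor. Both were lower in the tumor in 3 of 3 rats, with no overlap of the tissues, as were 2165 of 12190 genes (17.8%). CD79B fell by 5.64 on the log2(CPM + 1) scale (SE 1.09, limma adjusted p = 0.00427). MS4A1 was at -3.91 (SE 1.42), BLK at -2.01 (SE 0.71), PAX5 at -0.78 (SE 0.42) and MZB1 at -1.22 (SE 1.11), with limma adjusted p of 0.08995, 0.0823, 0.265 and 0.549. The call on 1 of 5 members stands beside 1349 of 12190 genes (11.1%) called in limma (439 up, 910 down). Leaving out vehicle tumor rat 3 added BLK (-2.68, limma adjusted p = 0.0291). Rat 3 was the only vehicle rat with BLK not lower in the tumor, at 28.9 CPM in the gland and 32.4 CPM in the tumor. This call thus follows from its removal.

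In TGFBRi-treated rats no member passed between tumor and gland. CD79B was at 36.9, 61.05 and 9.86 CPM in glands of rats 1, 2 and 3 and at 6.82, 6.95 and 178 CPM in their tumors, lower in 2 of 3 tumors and higher in the third. MS4A1 was at 5.34, 21.2 and 1.51 CPM in glands and 0, 38.3 and 154 CPM in tumors. Tumor minus gland was -0.88 to +1.37, and 0 of 5 members passed or had an unadjusted p under 0.05 (limma adjusted p 0.399 to 0.904), beside 3056 of 12190 genes (25.1%), 2113 called by edgeR and 3376 by DESeq2. MS4A1 was at +1.37 and, divided by PTPRC, at -1.01. Leaving out TGFBRi tumor rat 1 gave a call for MS4A1 (+3.46, limma adjusted p = 0.0266). It was the only TGFBRi tumor with MS4A1 below its gland, at 0 CPM, so this call follows from its removal. The main fit called 25.1% of all genes. The difference between the arms, TGFBRi minus vehicle, was +5.24 (SE 1.54) for CD79B and +5.28 (SE 2.01) for MS4A1, and 0 of 5 passed (limma adjusted p 0.508 to 0.906, 2 at an unadjusted p under 0.05), beside 0 of 12190 genes (0.0%) and 921 genes at an unadjusted p under 0.05, edgeR and DESeq2 not having been run on this term. The arms were thus not shown to differ.

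**Figure D4:**
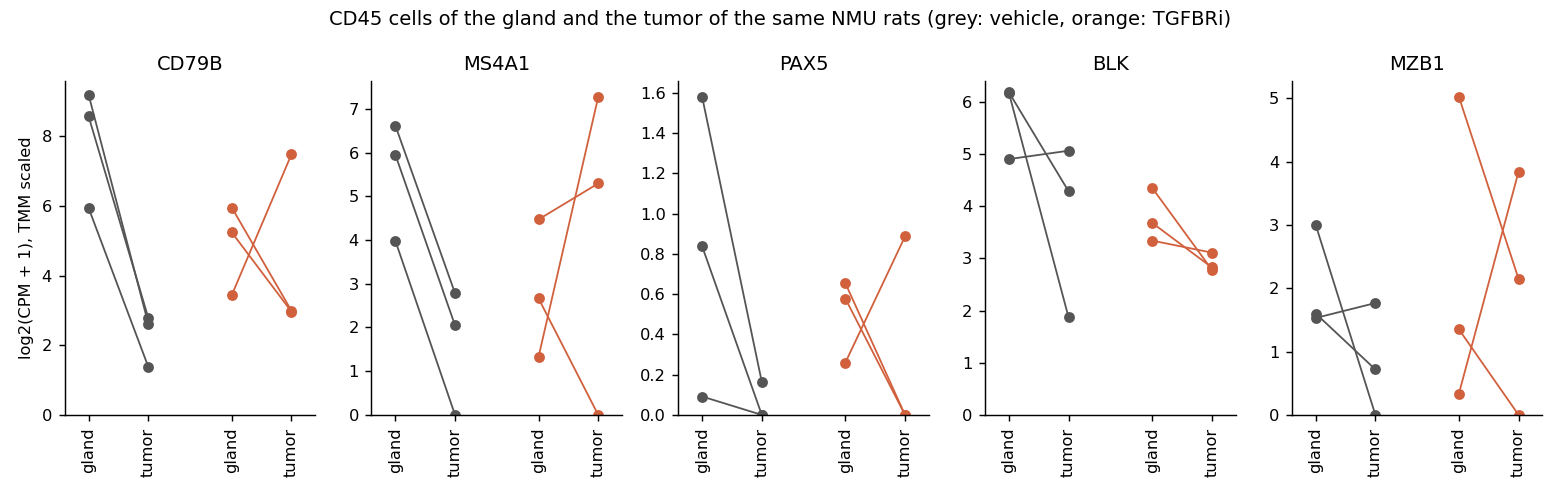
CD79B, MS4A1, PAX5, BLK and MZB1 in CD45 cells of gland and tumor of the same NMU-treated rats as log2(CPM + 1), TMM scaled, with 1 point per rat and tissue, a line joining the tissues of a rat, vehicle in grey and TGFBRi in orange. CD79B was lower in the tumor in 3 of 3 vehicle rats and in 2 of 3 TGFBRi-treated rats.

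Of the B lineage lists, 6 of 69 genes tested fell and 0 rose in vehicle tumors. Over all genes 910 of 12190 (7.47%) fell, a share near that of the lists. Those of the lists included the complement receptor gene CR2 (-3.05, limma adjusted p = 0.007996), FCER2 (-6.33), and the transcription factor genes EBF1 (-3.78), POU2AF1 (-3.66) and BACH2 (-2.83). Medians were -0.80 for receptor signalling and +0.24 for the plasma cell list, against -0.07 over all genes. In TGFBRi-treated rats 5 of 69 list genes rose and 9 fell, beside 9.9% and 15.2% of all genes, with CD22 at -3.16, SDC1 (a surface marker of plasma cells and of epithelium) at -3.81 and the homing receptor gene CCR7 at +1.42.

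Markers of other cells differed between tumor and gland. With vehicle, 5 of 6 mast cell and 3 of 9 T cell markers rose in tumors and 4 of 5 fibroblast markers fell. With TGFBRi, 7 of 9 T cell markers rose, 6 of 7 macrophage and 5 of 5 basal markers fell, and PTPRC itself rose by 2.91. Their part in the members' differences was not tested. Undivided, 1 of 5 members was called with vehicle and 0 of 5 with TGFBRi. Divided by PTPRC, which shifts the median of all genes to -1.01 with vehicle and -2.47 with TGFBRi, 3 of 5 members were called lower in each arm (CD79B and BLK in both). After that division 1622 genes were called with vehicle and 7673 with TGFBRi, where the main fits tested 12190 genes, so most genes were called with TGFBRi. On that scale 1.6% of 1622 called genes were higher with vehicle and 0.1% of 7673 with TGFBRi, against 32.5% and 39.5% without it.

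Whole glands of young SD rats, with no sort, held 103524 cells in 9 rats, and 23281 of them (22.5%) formed B-like clusters. Clusters were made without the 6 members and named by other B cell markers, such as CD79A, CD22 and BANK1. Both B-like clusters (17495 and 5786 cells) were led by MHC class II genes such as CD74 and RT1-DA. Rats of different libraries shared 88 to 284 cell barcodes (1.11% to 2.51%) over 36 pairs. The smaller B-like cluster had a median of 1286.5 UMIs (transcript molecules) per cell, against 2555 in the larger, and it held 77.9% of the B-like cells of vehicle rat 4, 29.7% and 33.5% in the other vehicle rats and 15.7% to 20.6% in TGFBRi-treated rats. Vehicle rat 4 thus stood apart in the B cells it gave.

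Within B-like cells, CD79B was the most abundant member at 1309 CPM of UMIs, followed by MS4A1 (283), JCHAIN (236), BLK (114), MZB1 (96.02) and PAX5 (26.1). These are sums of molecules over all rats, read from the 5′ end. JCHAIN's place differed between rats, with levels of 68.5 to 482 CPM, above MS4A1 in TGFBRi-treated rats 1 and 6 and below BLK in vehicle rats 2 and 4 and TGFBRi-treated rat 4. T-like cells should lack them. The cycling cluster described below had T-like markers but CD79B at 233 CPM, and it was kept apart from them here and in the shares below. In the other T-like cells the 6 members were at 0.553 to 3.52 CPM. B-like cells held 89.9% of all CD79B UMIs, 88.4% of MS4A1, 84.2% of PAX5, 73.5% of BLK, 68.9% of JCHAIN and 55.2% of MZB1. The first 3 genes thus lay mostly in these clusters, and the others had larger shares elsewhere.

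BLK had a second place outside B cells. A cluster of 895 cells led by CCL17, FSCN1 and CCL22, genes known from migratory dendritic cells, which was left unnamed, had BLK at 209 CPM, with a UMI in 51.2% of its cells, against 25.04% in the larger B-like cluster. Median depths of these clusters were 5199 and 2555 UMIs per cell, and the shares were not thinned. The CCL17-led cluster held 11.7% of BLK UMIs, while CD79B there was at 8.81 CPM, near that of other non-B clusters. MZB1 and JCHAIN had theirs in a cluster of 579 cycling cells led by MKI67 and TOP2A, which held 37.3% of MZB1 and 16.4% of JCHAIN UMIs. Dendritic-like cells held 8.33% of JCHAIN UMIs at 98.02 CPM.

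No cluster was plasma-like at any of 3 resolutions, yet a few cells carried most of JCHAIN. A set of 77 cells with 20 or more JCHAIN UMIs, a limit chosen after the values were seen, held 73.2% of 19655 UMIs. TGFBRi-treated rats 6, 2 and 1 gave 36, 15 and 14 of them, and each of the other 6 rats gave 1 to 3. Of the 77 cells 37 lay in B-like clusters and 27 in the cycling cluster, and 6 were marked as doublets. Compared with the remaining B-like cells, these cells had MZB1 at 5556 against 38.2 CPM, TNFRSF17 (the plasma cell receptor BCMA) at 232 against 0.263, XBP1 at 619.7 against 42.9 and IGHM, the heavy chain of IgM, at 12996 against 936. These genes, too, were chosen after their values were seen. PAX5 was at 2.37 against 26.3, CD79B at 413 against 1316 and CD38 at 10.3 against 76.2. IRF4, a transcription factor of plasma cells and activated B cells, was not higher, at 98.9 against 101.6. These values describe cells picked by JCHAIN.

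B-like cells were 25.5% (24.8 to 26.1), 24.5% (23.8 to 25.3) and 8.27% (7.78 to 8.78) of all cells in vehicle rats 1, 2 and 4 (exact 95% binomial intervals in parentheses, for counting error only). They were 27.8%, 27.7%, 20.5%, 26.98%, 20.99% and 21.9% in TGFBRi-treated rats 1, 2, 4, 6, 11 and 14. All but vehicle rat 4 lay between 20.5% and 27.8%. The mean share was 19.4% ± 9.67 with vehicle (SD, n = 3) and 24.3% ± 3.51 with TGFBRi (SD, n = 6), a difference of 4.8998 percentage points (exact two-sided permutation test over 84 splits, p = 0.452). Of leukocyte-like cells they were 58.05%, 61.4% and 32.1% with vehicle and 54.1%, 51.8%, 42.9%, 55.9%, 39.5% and 51.9% with TGFBRi, a difference of -1.17 points (exact two-sided permutation test, p = 0.905). Neither share separated the arms, and the sign of each difference turned on single rats.

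Summed over all cells of a gland, the members had higher fitted values with TGFBRi, and BLK passed the test. BLK was at 9.85, 10.05 and 4.36 CPM in vehicle rats and 27.8, 22.1, 16.3, 21.05, 16.6 and 18.4 CPM in TGFBRi-treated rats, with no overlap. CD79B was at 104.3, 118 and 17.98 CPM with vehicle and 253, 199, 124, 221, 151 and 176 CPM with TGFBRi, also with no overlap. MS4A1 was at 25.9, 25.1 and 7.65 and 61.1, 46.4, 29.1, 41.1, 29.6 and 35.5 CPM. CD79B, MS4A1, PAX5 and BLK, 4 of 6 members, were higher in each TGFBRi-treated rat than in each vehicle rat, as were 3719 of 18178 genes (20.5%). JCHAIN overlapped, at 24.4, 10.1 and 4.42 CPM with vehicle and 97.5, 51.2, 10.5, 78.7, 24.7 and 34.02 CPM with TGFBRi. MZB1 did too, at 6.49, 9.04 and 2.72 and 47.5, 35.8, 3.59, 50.5, 9.26 and 7.47 CPM, with its high values in rats 1, 2 and 6, the rats that gave most JCHAIN-rich cells.

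BLK differed by +1.16 (SE 0.26) on the log2 scale (edgeR quasi-likelihood adjusted p = 0.01198, threshold 0.1). CD79B differed by +1.07 (SE 0.47), MS4A1 by +0.88 (SE 0.37), PAX5 by +0.96 (SE 0.50), JCHAIN by +1.75 (SE 0.73) and MZB1 by +1.91 (SE 0.86), with edgeR adjusted p of 0.1296, 0.111, 0.192, 0.111 and 0.136. The call on 1 of 6 members was below the share called over all genes, 5804 of 18178 genes (31.9%). With DESeq2 5 of 6 passed (not PAX5), beside 6522 of all genes, and without cells marked as doublets 3 of 6 (BLK, JCHAIN and MZB1), beside 5690. Without vehicle rat 1 or TGFBRi-treated rat 4 3 of 6 passed, beside 5201 and 5140 of all genes.

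Among other B cell genes in whole glands, more rose than fell. Of 73 list genes tested, 35 rose and 5 fell, beside 15.1% and 16.8% of all genes. Receptor signalling genes rose in 9 of 14 cases, with PRKCB, a kinase downstream of the receptor, at +1.69, SYK at +1.37, BTK at +1.20 and CD22 at +1.08. Transcription factor genes rose in 9 of 14 cases, with BCL11A at +1.48 and SPIB at +1.10. Of the plasma cell list 4 of 14 rose and 2 fell. Medians were +0.76, +0.64 and +0.10, against +0.01 over all genes. PTPRC rose by +1.16 (edgeR adjusted p = 0.00433) in the same sums, as much as BLK, and CD3E by +1.40 (edgeR adjusted p = 0.00737). T cell markers moved alongside, with 8 of 9 higher, and NK markers with 4 of 5. Their part in the members' differences was not tested.

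Within B-like cells, CD79B had a higher fitted value with TGFBRi and was the only member called, a share near that of all genes. It was at 989.9, 1179 and 601 CPM in vehicle rats 1, 2 and 4 and at 1464, 1171, 1358, 1489, 1619 and 1481 CPM in TGFBRi-treated rats 1, 2, 4, 6, 11 and 14, so that TGFBRi-treated rat 2 overlapped vehicle rat 2. The difference was +0.57 (SE 0.14) (edgeR quasi-likelihood adjusted p = 0.0196). PTPRC was higher in the same sums too, by +0.70 (SE 0.08, edgeR adjusted p = 0.000266). PAX5 was higher in each TGFBRi-treated rat, narrowly so in rat 6, as were 1463 of 12772 genes (11.5%). It was at 23.8, 22.7 and 9.45 and 25.7, 29.2, 26.4, 23.8, 34.7 and 29.5 CPM, a difference of +0.44 (SE 0.18) (edgeR adjusted p = 0.131). BLK differed by +0.40 (SE 0.17), MS4A1 by +0.16 (SE 0.10), JCHAIN by +0.83 (SE 0.61) and MZB1 by +0.61 (SE 0.62), with edgeR adjusted p of 0.156, 0.349, 0.443 and 0.589. The 1 call among 6 members stands beside 2233 of 12772 genes (17.5%), about the same share. Without vehicle rat 4, CD79B stayed called at +0.40 and BLK and MS4A1 were added, beside 2862 of all genes, and without vehicle rat 1 PAX5 was added, beside 2108. Without the cluster of low depth, CD79B (+0.46) and BLK (+0.57) were called, beside 2028 of all genes. With the rat number shared by the arms as a replicate block, 0 of 6 members were called, beside 66 of all genes. Whether these numbers pair the rats could not be decided.

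Shares of B-like cells with a CD79B UMI were 65.6% with vehicle and 84.4% with TGFBRi, at median depths of 1929 and 2539 UMIs. Thinned to 1000 UMIs per cell, which left out 1192 and 1389 shallower cells, they were 53.5% and 68.3%. In T-like cells the thinned shares were 0.376% and 0.299%. BLK gave thinned shares of 7.56% and 11.3%, JCHAIN of 2.88% and 4.35% and MZB1, the other way, of 3.36% and 2.698%, where T-like cells had at most 0.188% for these genes. The rats of the arms overlapped for all 3, with vehicle rats up to 10.8% and TGFBRi-treated rats from 8.82% for BLK, and up to 3.77% and from 3.74% for JCHAIN. Of 70 list genes tested in B-like cells 19 rose and 8 fell, beside 8.72% and 8.76% of all genes, with 7 up and 1 down of 14 receptor signalling genes (median +0.47, against +0.00 over all genes) and 3 up and 4 down of 14 plasma cell genes. Markers of luminal epithelium (4 of 6) and of macrophages (4 of 6), which B cells should lack, were lower with TGFBRi in the same sums. Their part in the CD79B difference was not tested.

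**Figure D5:**
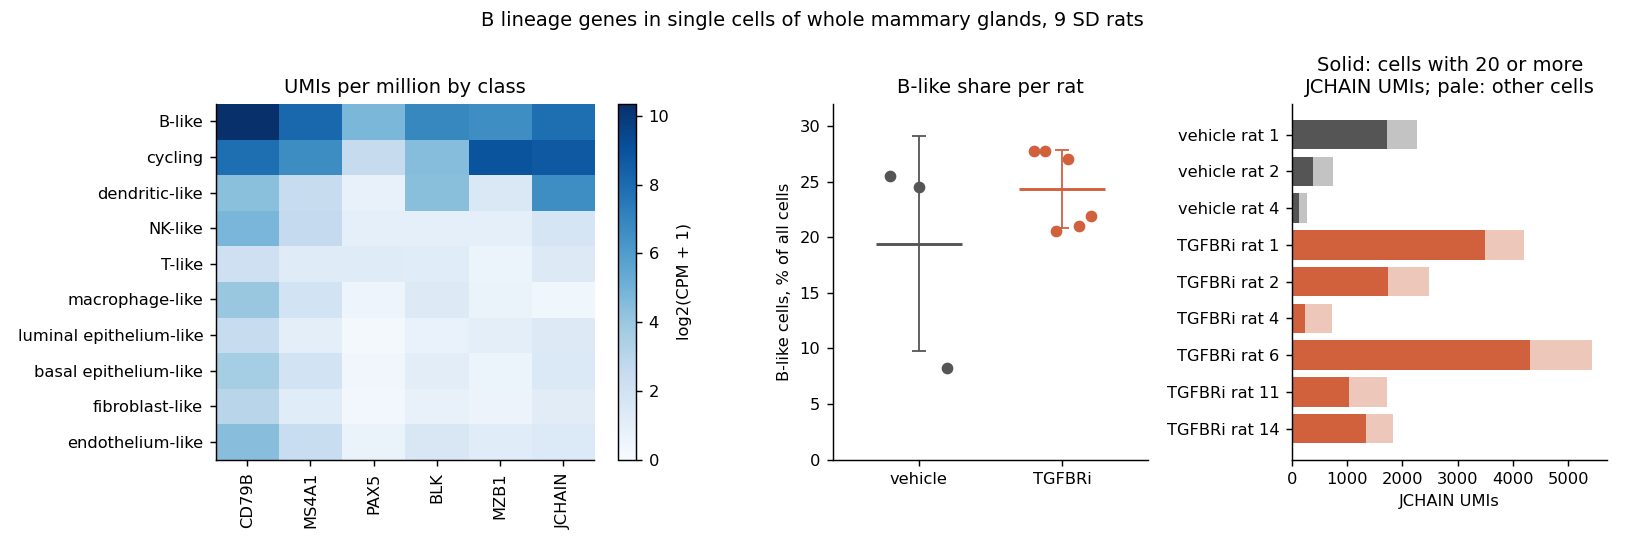
Whole-gland single-cell data of young SD rats, showing each member's level by cell class as log2(CPM + 1) in colour (left), the B-like percent of all cells per rat with the mean and 1 SD (middle) and JCHAIN UMIs per rat, solid for cells with 20 or more and pale for the rest (right). Among cell classes, CD79B, MS4A1, PAX5 and BLK were highest in the B-like class, vehicle rat 4 had the lowest B-like share (8.27%), and JCHAIN UMIs came mostly from few cells in 7 of 9 rats. The CCL17-led cluster, with BLK above its B-like level, is pooled with other unnamed cells.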

How the data were processed

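CD45 bulk RNA-seq and whole-gland single-cell RNA-seq were re-analysed. Bulk libraries (SMARTer v4, under 10 ng of RNA, no strand kept, so overlapping antisense genes cannot be told apart) were aligned by the authors to rn6 with STAR 2.5.1b, counted with HTSeq and deposited as signal, DESeq2 1.30.1 normalized counts. Whole reads were recovered for all 910960 values above 0 (tolerance 0.001). For single cells the authors deposited UMI counts from Cell Ranger 7.0.0. Submitters' notes name Seurat 4.1.1. The members and lists were chosen with earlier results of these data known. Groups came from the labels. Parts of 1 rat were averaged, genes needed a summed value of 10, and all CD45 groups of an experiment were fitted in 1 model with limma 3.58.1 (R 4.3.3) on log2(value + 1), trended and robust, with Benjamini-Hochberg adjusted p of 0.05 or less. edgeR 4.0.16 and DESeq2 1.42.0 on recovered reads were alternatives. Tumor against gland used log2(CPM + 1) with TMM scaling, since those tables were normalized separately. The 6 rats with both tissues pair by animal per the labels (r of deviations -0.04 to 0.12), and a rat block changed no call. The 103524 cells were all kept, clustered with scanpy 1.11.5 (2000 variable genes without the members, 30 components, 20 neighbours, Leiden resolution 0.8) and named by markers. Doublets were marked by score at 0.8% per 1000 cells, since the automatic threshold marked almost none, and kept except in 1 alternative. Sums per rat were tested by edgeR's quasi-likelihood test at an adjusted p of 0.1. In the adult and E2 tables, 30.7% to 42.5% of reads lay in entries that name no gene and were left out. Scripts were tested on simulated data. For young ACI rats at day 0, 2% of simulated 2-fold, 54% of 4-fold and 98% of 16-fold changes were recovered. For TGFBRi-treated rats with E2 against no E2, 22% of 2-fold and 86% of 4-fold changes were recovered, and for whole-gland sums 68% and 90%. Some genes of the lists are not reported here. Named genes were the members, up to 6 called genes a list, the 3 most similar genes and set markers. Each rat was 1 replicate.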

Additional observations from a re-analysis of the deposited data

Results flagged for a closer look

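Among 49 tests for a rat far from the others of its group, over member levels and B-like shares in groups of at least 4 rats, 3 found one, and chance gives about 1 in 20. MZB1 was at 338.98 normalized counts in young SD TGFBRi-treated rat 2, with the nearest rat at 78.4. BLK was at 3213.41 in the TGFBRi-treated tumor-free rat 2 of the E2 experiment, with the nearest rat at 1307.52, and the same rat was the highest of its group for CD79B. CD79B was at 3397.23 in vehicle rat 4 without E2, with the nearest rat at 6895.69. No difference between the treatment effects of 2 groups was called by limma among 20 tests of members, 7 of which had an unadjusted p under 0.05, and edgeR and DESeq2 called none of the 15 they were run on.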

How the results depend on the processing

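Of 387 recomputed counts of called members and differences in share, 360 were unchanged by a set rule. A count passed if equal to the main count or within 1.5 times of it, where many main counts were 0. Which members were called was not compared. A difference in share passed if its sign and side of the threshold stayed. Leaving out 1 rat moved the number of members called to between 0 and 5 at young ACI day 0, 0 and 3 for vehicle day 7 against day 0, 0 and 5 for vehicle day 14 against day 0 and 0 and 5 for the treatment effect at day 0 against day 14, where vehicle day 0 rat 1 alone decided the upper value. It moved the number to between 0 and 4 for TGFBRi tumor-free rats with E2 against no E2 (rat 2 with E2), 1 and 2 for vehicle tumor against gland (tumor rat 3), 0 and 1 for TGFBRi tumor against gland (tumor rat 1), 1 and 3 for whole glands (vehicle rat 1 and TGFBRi-treated rat 4) and 1 and 3 for B-like cells, with 2 without vehicle rat 1 and 3 without vehicle rat 4. Fewer samples then carry the fit, and otherwise the cause was not tested. The B-like share of all cells then differed between the arms by -0.676 to 7.92 percentage points, negative without vehicle rat 4, and that of leukocyte-like cells by -10.4 to 4.25, positive without vehicle rat 1 (2.60) or 2 (4.25) and without TGFBRi-treated rat 4 (0.113) or 11 (0.81). With the most-read part alone (part 1 of rat 1, which had hardly any CD79B) 1 member was called in TGFBRi tumor-free rats with E2. DESeq2 called 1 in NMU glands of tumor-bearing rats and 5 in whole glands. Values divided by PTPRC gave 3 for tumor against gland in each arm, beside 1622 of all genes with vehicle and 7673 with TGFBRi. Removing marked doublets gave 3 in whole glands. At Leiden resolution 1.6 the share of leukocyte-like cells differed by 10.6 points, and without the B-like cluster of low depth, an alternative chosen after seeing the data, by 7.79 points, with 2 members called in B-like cells. The cause of these changes was not tested. The test of the difference between the arms in tumor against gland was also added after seeing the data. Whether rat numbers shared by the arms pair the whole-gland or adult samples could not be decided from correlations of deviations (-0.05 to 0.37 and -0.45 to 0.30). Tumor and gland of the same rats gave only -0.04 to 0.12 by that measure. With the shared number as a replicate block, 4 members were called in whole glands and 0 in B-like cells, 0 in adult virgin and 0 in parous rats, and the shares differed by 5.92 and -0.909 points. With the rat as a block, tumor against gland kept 1 member with vehicle and 0 with TGFBRi. Counts of all genes called changed by over 1.5 times in these cases. For young ACI day 0, TGFBRi against vehicle, 420 became 192 with edgeR, 1043 with DESeq2 and 29 with the compared groups alone. For young ACI day 7, TGFBRi against vehicle, 0 became 18 with DESeq2. For young ACI day 14, TGFBRi against vehicle, 0 became 17 with DESeq2. For young ACI vehicle, day 7 against day 0, 0 became 40 with DESeq2. For young ACI vehicle, day 14 against day 0, 19 became 6 with edgeR, 470 with DESeq2, 2 with division by PTPRC and 0 with the compared groups alone. For young ACI, treatment effect day 0 against day 7, 2 became 1 with edgeR, 162 with DESeq2, 1 with division by PTPRC and 1 with the compared groups alone. For young ACI, treatment effect day 0 against day 14, 28 became 823 with DESeq2 and 4 with the compared groups alone. For young SD day 0, TGFBRi against vehicle, 0 became 1 with DESeq2. For adult ACI virgin, TGFBRi against vehicle, 3 became 0 with edgeR, 69 with DESeq2, 0 with division by PTPRC, 0 with the compared groups alone and 0 with the block. For adult ACI TGFBRi, parous against virgin, 0 became 20 with DESeq2. For adult ACI, treatment effect parous against virgin, 0 became 6 with DESeq2. For E2 experiment vehicle, E2 tumor-bearing against no E2, 38 became 0 with edgeR, 251 with DESeq2 and 75 with the compared groups alone. For E2 experiment TGFBRi, E2 tumor-free against no E2, 752 became 1523 with DESeq2, 444 with division by PTPRC and 1147 with the compared groups alone. For E2 experiment with E2, TGFBRi tumor-free against vehicle tumor-bearing, 0 became 8 with DESeq2. For E2 experiment with E2, TGFBRi tumor-bearing against vehicle tumor-bearing, 3 became 0 with edgeR, 21 with DESeq2 and 0 with the compared groups alone. For E2 experiment with E2 TGFBRi, tumor-bearing against tumor-free, 9 became 0 with edgeR, 41 with DESeq2, 4 with division by PTPRC and 0 with the compared groups alone. For NMU gland, TGFBRi tumor-free against vehicle tumor-bearing, 0 became 1 with DESeq2. For NMU gland, TGFBRi tumor-bearing against vehicle tumor-bearing, 2 became 0 with edgeR, 193 with DESeq2, 28 with division by PTPRC and 0 with the compared groups alone. For NMU gland TGFBRi, tumor-bearing against tumor-free, 0 became 119 with DESeq2 and 3 with division by PTPRC. For NMU tumor, TGFBRi against vehicle, 0 became 66 with DESeq2 and 10 with division by PTPRC. For NMU vehicle, tumor against gland of the same rats, 1349 became 639 with edgeR. For NMU TGFBRi, tumor against gland of the same rats, 3056 became 7673 with division by PTPRC. For whole gland sums, TGFBRi against vehicle, 5804 became 2334 with the block. For B-like cells, TGFBRi against vehicle, 2233 became 66 with the block. Among 3 genes called between tumor-bearing arms with E2, 33.3% were higher, and 0.0% of 2 when divided by PTPRC. Tests of plasma-like cells were not run, since no cluster was plasma-like. Depth limits PAX5, which rested on 19 to 268 UMIs per rat in whole glands.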
